A study of Mus musculus with 12 samples.

Results

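The mitochondrially encoded genes were the rows of the deposited expression table whose gene name begins with mt-. There were 13 such rows among 34745, and all 13 were protein-coding genes. The GENCODE M21 annotation places 37 genes on the mouse mitochondrial chromosome, and the 2 ribosomal RNA and 22 transfer RNA genes among them were not analysed here. The tissue was the mPFC (medial prefrontal cortex) of male mice of wild-type genotype, taken at day 28 after chronic constriction injury (CCI) of a sciatic nerve, a model of neuropathic pain in which loose ligatures are tied around the nerve, or from naive mice at day 28 of habituation. There were 3 groups with 4 libraries each: ipsilateral (CCI mice, left mPFC, on the side of the operation), contralateral (CCI mice, right mPFC) and naive. All 3 groups shared the wild-type genotype, and the labels give no age, no hemisphere for the naive mice and no sham operation. Left and right CCI libraries with the same number were read as hemispheres of the same mouse, which the labels do not say outright.

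Mitochondrial DNA is a small circle that is copied and transcribed inside the organelle. Each strand, called heavy or light, is read as a long precursor RNA, and the transfer RNAs that lie between most genes mark where it is processed into separate messengers. The proteins made from these messengers are core subunits of the respiratory chain and the ATP synthase, and they are assembled with many subunits encoded in the nucleus. Neurons depend on this machinery for the energy of ion pumping and synaptic transmission. Most mitochondrial messengers carry a short poly(A) tail, so they enter libraries made with an mRNA kit; the mt-Nd6 messenger is known to lack a stable tail.

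Of the 13 genes, 7 encode subunits of complex I, the NADH dehydrogenase (mt-Nd1, mt-Nd2, mt-Nd3, mt-Nd4, mt-Nd4l, mt-Nd5 and mt-Nd6). Complex III, which passes electrons to cytochrome c, has 1 (mt-Cytb, cytochrome b). Complex IV, the cytochrome c oxidase that reduces oxygen, has 3 (mt-Co1, mt-Co2 and mt-Co3), and the ATP synthase has 2 (mt-Atp6 and mt-Atp8). The annotation puts 12 of them on the plus strand of the reference and 1, mt-Nd6, on the minus strand. The positions in the deposited table equal those of GENCODE M21 (GRCm38) for all 13.

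The genes lie close together, and 4 pairs of the 13 overlap. The pair of mt-Atp6 and mt-Co3 shares a single base, 8607, and the overlaps of the other 3 pairs are shown. A read inside an overlap cannot be assigned to a single gene, so the counts of overlapping genes depend on how the authors' program treated such reads. By the annotation, mt-Nd1, mt-Nd2 and mt-Co1 also overlap a transfer RNA gene, by 2, 2 and 3 bases. Sequences are from the GENCODE M21 transcripts, given 5′ to 3′ on the plus strand, with the shared bases in capitals.
mt-Atp8 and mt-Atp6 (chrM:7915-7981): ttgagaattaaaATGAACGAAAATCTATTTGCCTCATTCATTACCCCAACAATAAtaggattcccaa
mt-Nd4l and mt-Nd4 (chrM:10149-10191): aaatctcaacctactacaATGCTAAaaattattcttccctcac
mt-Nd5 and mt-Nd6 (chrM:13534-13565): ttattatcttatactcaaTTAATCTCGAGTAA
In the first pair shown, the 43 shared bases begin with the ATG of mt-Atp6 and end with the TAA of mt-Atp8. In the mt-Nd4l and mt-Nd4 pair only 7 bases are shared, again from the ATG of the downstream gene to the TAA of the upstream gene. The 14 shared bases of mt-Nd5 and mt-Nd6 hold the ends of both genes, which run toward each other on opposite strands. Whether the libraries keep the strand is not given in the sources used here, so RNA of mt-Nd6 and RNA read from the other strand across the same bases cannot be told apart.

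Another feature of these messengers is that 3 of them stop on a lone T. The stop codon of such a messenger is completed by the poly(A) tail, which is added after the last encoded base. The last 31 bases of these 3 genes are shown with that T in capitals.
mt-Co3 (chrM:9360-9390): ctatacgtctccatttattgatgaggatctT
mt-Nd4 (chrM:11514-11544): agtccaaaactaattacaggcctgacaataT
mt-Cytb (chrM:15258-15288): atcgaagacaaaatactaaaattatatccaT
The other 10 annotated coding sequences end with a whole stop codon, TAA in 8 and TAG in 2 (mt-Nd1 and mt-Nd2). The first codon was ATG in 9 genes, GTG in mt-Nd1, ATA in mt-Nd2, ATT in mt-Nd3 and ATC in mt-Nd5.

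Fragments of mitochondrial DNA have been inserted into nuclear chromosomes, and 7 annotated nuclear pseudogenes in the table matched a mitochondrial gene at 99% identity or more over the aligned bases. All 7 lie next to each other on the minus strand of chromosome 1, between 24611535 and 24616197 (GRCm38). Compared base by base, Gm10925 was identical to mt-Atp6 over 678 bases, Gm28437 to mt-Co3 over 783, Gm28661 to mt-Co2 over 681, Gm28439 to mt-Nd4 over 876 and Gm10222 to mt-Nd4l over 294. Gm29216 differed from the last 492 bases of mt-Co1 at 6 bases. Gm28438 differed from mt-Nd3 at 1 of 345 bases, T3C, counted from 1 at the first base of the gene. The start of that pair is shown with the differing base in capitals, each on the strand of its own gene.
mt-Nd3 (chrM:9459-9481): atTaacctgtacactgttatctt
Gm28438 (chr1:24613097-24613119): atCaacctgtacactgttatctt
A read that falls inside an identical stretch fits both places equally well. The counts of mt-Atp6, mt-Co1, mt-Co2, mt-Co3, mt-Nd3, mt-Nd4 and mt-Nd4l are therefore uncertain by the share given to the copies. For the other 6 genes no annotated match of at least 100 bases reached 99% identity.

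The copies took 14.02 to 18.1% as many counts as mt-Nd3, mt-Co2, mt-Nd4l, mt-Co3 and mt-Atp6, over all libraries together. The figure was 9.06% for mt-Nd4, whose copy covers 63.6% of the gene, and 2.57% for mt-Co1, whose copy covers 31.3%. Together the 7 copies held 0.420 to 0.586% of all counts, or 5.86 to 6.45% of the counts of the 13 genes. A less similar copy of the whole of mt-Co1, Gm13340 on chromosome 2 (97.6% identical), had 1.20% of the count of mt-Co1. The copies' counts thus stayed at a near-constant ratio to the mitochondrial genes, with a coefficient of variation (SD divided by mean) of 2.93% over the 12 libraries.

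The libraries held 16.1 to 20.6 M counts in all (M, mega-counts). Markers of cortical tissue were present: the summed level of 6 excitatory neuron markers was 5073 to 6428 CPM (counts per M counts of the library, with TMM factors between libraries), and no marker gene of the 10 cell type lists was at 0 in any library. Astrocyte marker sums are given without Slc1a2, a glutamate transporter whose level took 2 steps, 295 to 510 CPM (7 libraries) and 2432 to 2786 CPM (5 libraries).

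Together the 13 genes took 7.18, 7.23, 7.59 and 7.24% of the counts in ipsilateral libraries 1 to 4. In contralateral libraries 1 to 4 they took 6.89, 7.17, 8.66 and 9.28%, and in naive libraries 1 to 4 7.84, 8.25, 6.95 and 7.63%. The means were 7.31 ± 0.19% ipsilateral, 8.0 ± 1.16% contralateral and 7.67 ± 0.54% naive (SD, n = 4 each). The ipsilateral values lay close together, contralateral 3 and 4 were the highest of the 12 and contralateral 1 was the lowest. The 3 groups overlapped. In bulk tissue, more cells rich in mitochondria and more mitochondrial RNA per cell cannot be told apart.

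**Figure D1:**
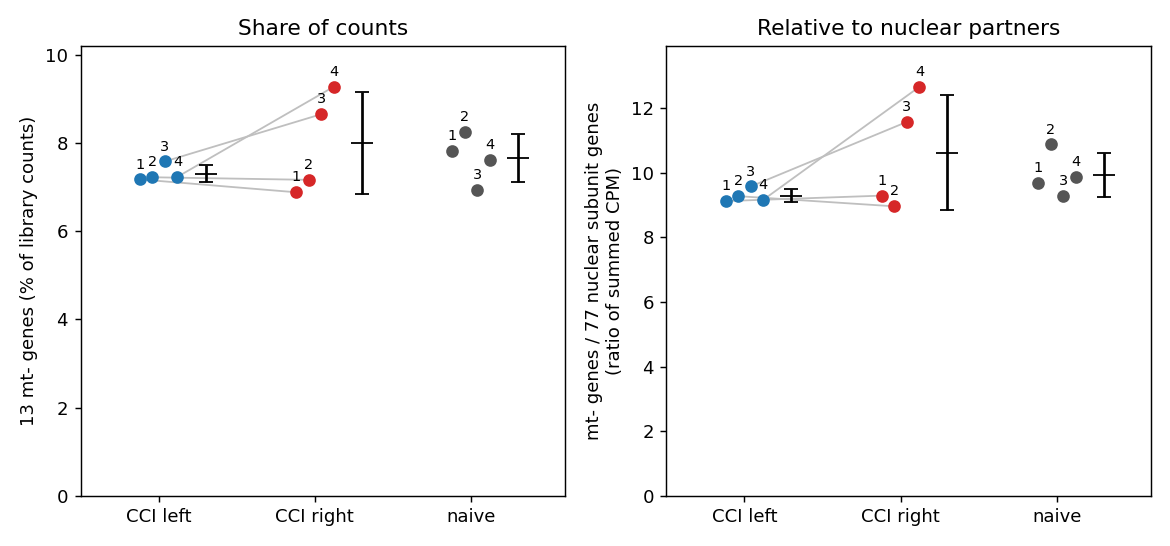
Left, counts of the 13 mitochondrially encoded genes as a percent of all counts of a library; right, their summed CPM divided by the summed CPM of 77 nuclear genes for respiratory chain and ATP synthase subunits. Points are libraries with their replicate number, grey lines join left and right libraries of the same number, and bars are the group mean ± SD (n = 4). Contralateral 3 and 4 are the highest in both plots, at 8.66 and 9.28% and at ratios of 11.6 and 12.7.

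Compared per length, in the authors' FPKM (fragments per kilobase of gene and per mega-fragment of the library), the levels fell into a fixed order. mt-Co1, the catalytic subunit of complex IV, was the highest at 15407 ± 1469 FPKM (SD, n = 12 libraries here and below). The ATP synthase genes mt-Atp8 (11470 ± 1144 FPKM) and mt-Atp6 (10000 ± 1124) came next, and then mt-Co2 (9710 ± 860) and mt-Co3 (8318 ± 808). Cytochrome b stood at 6701 ± 660 FPKM. The complex I genes filled the lower places: mt-Nd4l at 5638 ± 497, mt-Nd1 at 5361 ± 509, mt-Nd4 at 4478 ± 455, mt-Nd2 at 3669 ± 362, mt-Nd5 at 2997 ± 320, mt-Nd3 at 1519 ± 142 and mt-Nd6 at 41.4 ± 6.7. Within a library, each gene was above the next in this order in 12 of 12 libraries, except that mt-Atp6 was above mt-Co2 in 11 of 12. Across libraries the ranges of neighbours overlapped everywhere but between mt-Nd5 and mt-Nd3 and between mt-Nd3 and mt-Nd6. These FPKM values leave out the counts given to the nuclear copies, which for mt-Atp6 were 18.1% as many as its own. They also depend on how reads in the bases shared by mt-Atp8 and mt-Atp6 were treated. The order of close neighbours, such as mt-Atp8 and mt-Atp6, is therefore that of the deposited values only.

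**Figure D2:**
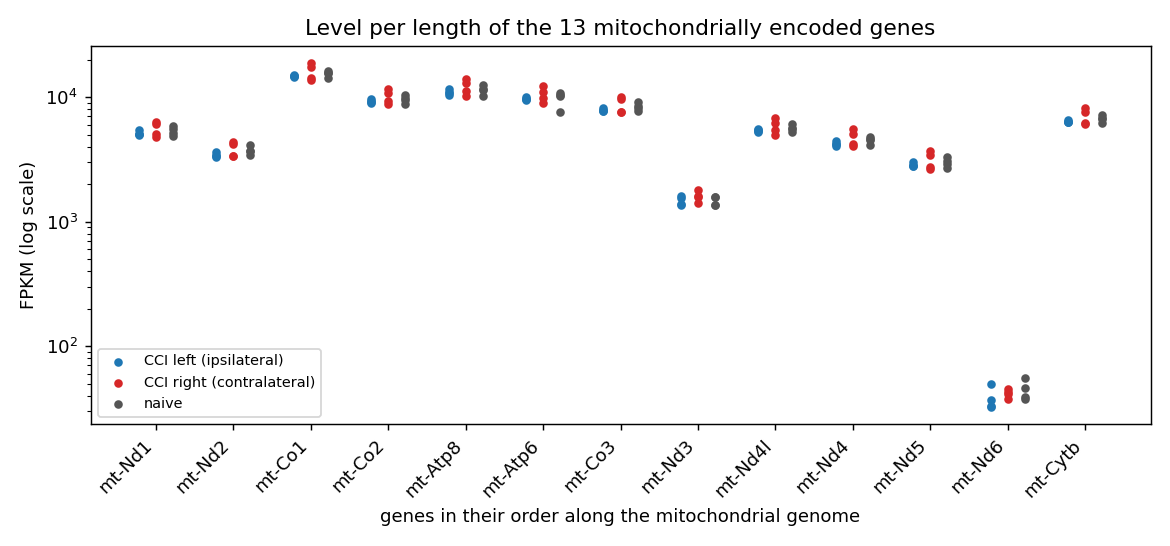
FPKM (log axis) of the 13 genes in their order along the mitochondrial genome, 1 point per library in 3 groups of 4. The 12 libraries of a gene lie close together compared with the full span of the 13 genes. Ranges of genes next to each other in level overlap, except between mt-Nd5 and mt-Nd3 and between mt-Nd3 and mt-Nd6. mt-Nd6 lies far below all others at 32.7 to 55.0 FPKM, and the low naive point of mt-Atp6 is naive 3 at 7655 FPKM.

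By count, mt-Co1 was the most abundant gene of the whole table in every library and mt-Cytb came next in every library. Among the 12 genes with the most counts, 9 were mitochondrial in each of the 12 libraries. The level of mt-Co1 was 22952 ± 412 CPM ipsilateral, 24634 ± 3810 contralateral and 23871 ± 1260 naive (SD, n = 4 each). mt-Cytb stood at 7348 ± 152, 7979 ± 1219 and 7682 ± 466 CPM in the same order. For both genes the SD was largest among contralateral libraries. At the other end, mt-Nd6 ranked between 6557 and 8435 by count, with 308 to 509 counts per library. Counting alone gives mt-Nd6 a relative error of 4.43 to 5.70%, against an observed coefficient of variation of 15.9%. For the other 12 genes the counting error was at most 1.121% and the observed variation 8.64 to 11.1%, so depth did not limit their precision.

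The 13 genes kept nearly fixed proportions to each other. mt-Co1 made up 30.5 to 31.8% of their counts in every library, a coefficient of variation of 1.30%, while its share of all counts varied more (9.34% in CPM). Complex I genes held 29.8 ± 0.28% of the mitochondrial counts, cytochrome b 10.01 ± 0.11%, complex IV genes 48.3 ± 0.43% and ATP synthase genes 11.9 ± 0.50% (SD, n = 12). The coefficient of variation of a single gene's share was 1.06 to 2.37% for 10 of the 13. The exceptions were mt-Atp6 (5.28%), mt-Nd3 (6.51%) and mt-Nd6 (14.1%).

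mt-Atp6, the channel subunit of the ATP synthase through which protons pass, was set apart by a single library. Its level was 6508, 6605, 6912 and 6715 CPM in ipsilateral libraries 1 to 4. Contralateral libraries 1 to 4 had 6022, 6731, 7466 and 8310 CPM, and naive libraries 1 to 4 had 7056, 7283, 5225 and 6938 CPM. Naive 3 was the lowest of the 12. The overall mitochondrial level of naive 3 was low as well, but the proportion also differed: mt-Atp6 made up 7.50% of the mitochondrial counts there and 8.64 to 9.33% in the other 11 libraries. The ratio of mt-Atp6 to its overlapping neighbour mt-Atp8 was 2.52 in naive 3 and 2.83 to 3.003 elsewhere, and to the downstream gene mt-Co3 0.854 against 0.994 to 1.117. The identical nuclear copy Gm10925 was not low in the same way. It had 21.2% of the count of mt-Atp6 in naive 3 and 16.3 to 19.0% elsewhere, and 25.4% of all counts of the 7 copies in naive 3 against 25.4 to 26.6% elsewhere. With Gm10925 added, mt-Atp6 held 8.56% of the mitochondrial and copy counts in naive 3 and 9.65 to 10.3% elsewhere.

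**Figure D3:**
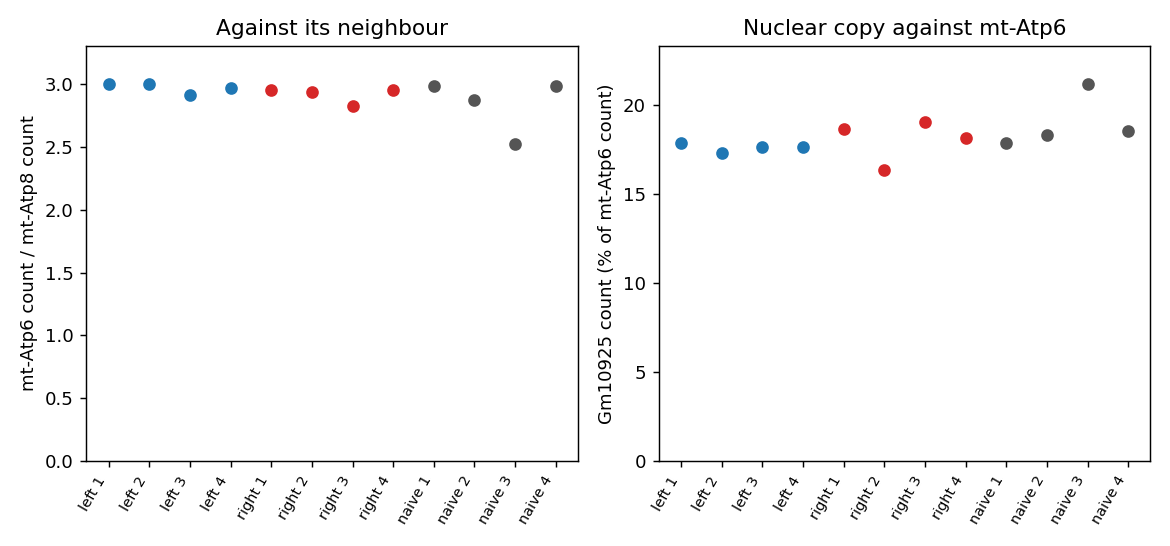
Left, the count of mt-Atp6 divided by that of mt-Atp8; right, the count of the nuclear copy Gm10925 as a percent of that of mt-Atp6; 1 point per library, blue for ipsilateral, red for contralateral and grey for naive. Naive 3 stands apart in both plots, at 2.52 and 21.2%.

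The comparison of CCI mice with naive mice asked whether any of the 13 genes differed between the animals after the injury. For this, left and right counts with the same number were added up, so that 4 CCI values stood against 4 naive values. None of the 13 genes passed edgeR's quasi-likelihood test at an adjusted p under 0.05, and the background was 0% of the 16179 genes tested, of which 679 (4.2%) had an unadjusted p under 0.05. Here and in the other 3 comparisons, 0 of the 13 had an unadjusted p under 0.05, and 0 passed with DESeq2 or limma. Of the 13 fold changes, 7 were positive and 6 negative, with a median log2 fold change of 0.00, equal to the 0.00 over all genes tested. The largest belonged to mt-Nd6, at -0.16 (SE 0.12; edgeR adjusted p = 1.00), and it was -0.04 without naive 1. mt-Nd3 stood at 0.07 (SE 0.07) and mt-Atp6 at 0.06 (SE 0.11), both with an edgeR adjusted p of 1.00. The value of mt-Atp6 was -0.04 without naive 3. The sign of the median also rested on single mice: it was -0.04 without CCI mouse 4 and 0.05 without CCI mouse 1.

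The levels behind the mt-Nd6 value show its spread. mt-Nd6, the complex I subunit read from the light strand, stood at 17.6, 17.0, 25.8 and 19.4 CPM in ipsilateral libraries 1 to 4. The contralateral values were 19.0, 22.4, 21.5 and 23.4 CPM, and the naive values 28.4, 24.1, 19.6 and 20.2 CPM. Naive 1 was the highest and ipsilateral 2 the lowest, and the groups overlapped. Relative to mt-Nd5, the gene it meets end to end, mt-Nd6 had 0.331 to 0.511% of the counts, highest in naive 1 and ipsilateral 3.

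The comparison of the ipsilateral mPFC with naive mPFC gave the same call. None of the 13 genes passed (edgeR, 0% of 15808 genes tested; 763 genes, or 4.83%, at an unadjusted p under 0.05). There were 2 positive and 11 negative fold changes with a median of -0.05, against 0.00 over all genes. mt-Nd6 stood at -0.21 (SE 0.14), mt-Nd2 at -0.09 (SE 0.09) and mt-Co3 at -0.08 (SE 0.09), with an edgeR adjusted p of 0.972 to 0.975. The mt-Nd6 value was -0.09 without naive 1 and -0.36 without ipsilateral 3. The level of mt-Nd2, a membrane subunit of complex I, had an ipsilateral mean of 3622 ± 157 CPM and a naive mean of 3862 ± 311 CPM (SD, n = 4 each). That of mt-Co3, a core subunit of complex IV, averaged 6233 ± 157 and 6566 ± 421 CPM. The ipsilateral and naive ranges of CPM overlapped for all 13 genes, and did not overlap for 4.73% of all genes tested.

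Contralateral mPFC was compared with the same naive libraries, so these 2 comparisons share their controls. None of the 13 genes passed (edgeR, 0% of 15808 genes; 597, or 3.78%, at an unadjusted p under 0.05). The fold changes of 12 genes were positive and that of mt-Nd6 was negative (-0.10), with a median of 0.05. mt-Nd3 had the smallest p, with a log2 fold change of 0.12 (SE 0.09), followed by mt-Atp6 (0.11, SE 0.11) and mt-Atp8 (0.08, SE 0.09), all with an edgeR adjusted p of 1.00. mt-Nd3, a small membrane subunit of complex I, stood at 479, 555, 561 and 625 CPM in contralateral libraries 1 to 4 and at 546, 553, 476 and 470 CPM in naive libraries 1 to 4. The groups overlapped, although 3 of the 4 contralateral values were above all naive values. No gene of the 13 had ranges of CPM that were free of overlap between contralateral and naive libraries, against 2.2% of all genes tested. mt-Atp8 had a contralateral mean of 2448 ± 349 CPM and a naive mean of 2324 ± 190 CPM. Without contralateral 4 the median of the 13 was -0.02 with 3 positive, and without naive 3 the value of mt-Atp6 was 0.01.

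**Figure D4:**
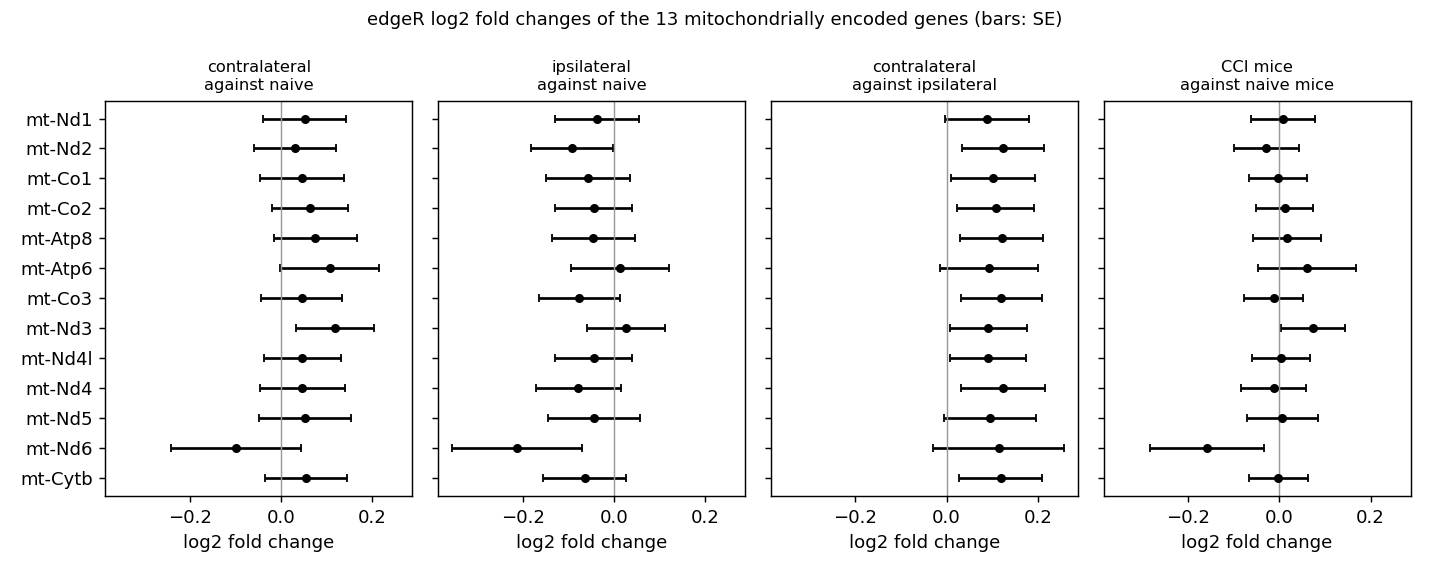
Log2 fold changes (edgeR, horizontal axis) of the 13 genes in 4 comparisons, with the standard error as bars; genes are in their order along the mitochondrial genome. All 13 points are right of 0 in contralateral against ipsilateral, between 0.09 and 0.12, and none of the 52 values passed the adjusted threshold.

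Contralateral and ipsilateral mPFC of CCI mice were compared to ask whether the hemispheres differed. The main fit did not pair left and right libraries of the same number. All 13 genes had a higher fitted level on the contralateral side, by 0.09 to 0.12 in log2, with a median of 0.11 against 0.00 over all genes tested. None passed (edgeR, 0% of 15808 genes; 1322 genes, or 8.36%, at an unadjusted p under 0.05). The 3 genes of smallest p were mt-Nd2 (0.12, SE 0.09; edgeR adjusted p = 0.705), mt-Co3 (0.12, SE 0.09; 0.711) and mt-Nd4 (0.12, SE 0.09; 0.716). Contralateral levels averaged 3946 ± 546 CPM for mt-Nd2, 6775 ± 996 CPM for mt-Co3 and 6418 ± 985 CPM for mt-Nd4. The ipsilateral mean of mt-Nd4, a proton-pumping subunit of complex I, was 5890 ± 235 CPM. For each of the 13 genes the ipsilateral and contralateral ranges of CPM overlapped, while they did not overlap for 2.95% of all genes tested. An unplanned fit of these 2 groups alone, with the number as a block, gave a median of 0.10, and none of the 13 passed.

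Right and left differed in another way in each mouse, so the shared sign of the 13 genes is no count of independent results. The genes move as a block within a library, as their fixed proportions show. In mouse 1 the right side was lower for 12 of 13 genes, with a median right-minus-left difference of -0.10 in log2 CPM, and only mt-Nd6 was higher (0.11). In mouse 2 the median was 0.01 with 9 of 13 genes higher on the right. In mouse 3 the median was 0.16 with 11 of 13 higher, and mt-Nd6 was lower by 0.26. Mouse 4 had all 13 higher on the right, between 0.27 and 0.34. The fitted median of 0.11 was 0.04 without contralateral 4, 0.07 without contralateral 3 and 0.17 without contralateral 1.

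**Figure D5:**
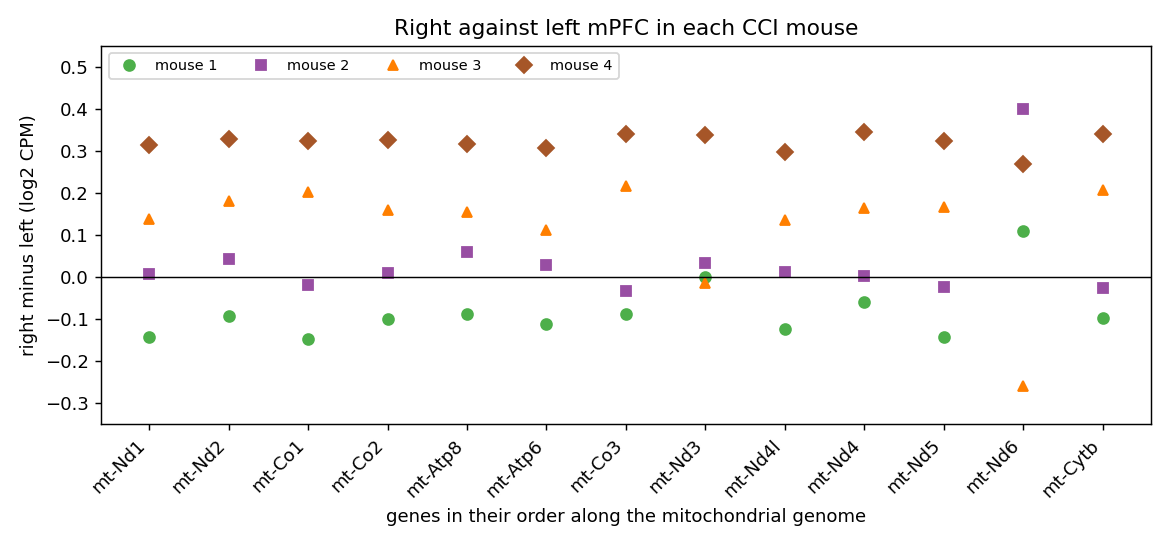
Right minus left level (log2 CPM) of each of the 13 genes in each CCI mouse, with genes in their order along the mitochondrial genome. Mouse 4 lies between 0.27 and 0.34 for all genes, mouse 3 around 0.16, mouse 2 around 0.01 and mouse 1 around -0.10; mt-Nd6 departs from the other genes of its mouse in mice 1, 2 and 3.

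Nuclear genes for subunits of the same complexes did not follow the mitochondrial genes in their signs. From lists of nuclear subunits, 77 genes were in the table, all 77 were tested and none passed in any comparison. In contralateral against ipsilateral, 12 of the 77 had a positive and 65 a negative fold change, with a median of -0.05, and 10 (12.99%) had an unadjusted p under 0.05. Over all genes tested, 51.1% were positive and 8.36% had an unadjusted p under 0.05. In complex I, 30 of 36 were negative, with Ndufb5 at -0.30 (SE 0.08) and Ndufv1, which binds NADH, at -0.13. In complex III, 8 of 9 were negative, with cytochrome c1 (Cyc1) and the core protein Uqcrc1 both at -0.14. In complex IV with cytochrome c, 11 of 13 were negative (Cox5a -0.17, Cox7a2 -0.09). In the ATP synthase, 12 of 15 were negative, with the catalytic subunit gene Atp5b at -0.13 and Atp5g1 at -0.18. All 4 genes of complex II, which has no mitochondrially encoded subunit, were negative (Sdha -0.10, Sdhc -0.06). The edgeR adjusted p of these named genes was between 0.592 and 0.745.

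Against naive mice, the nuclear subunits had the opposite balance to the mitochondrial genes in both single-hemisphere comparisons. For ipsilateral against naive, 60 of 77 nuclear genes were positive (median 0.04) beside 2 of 13 mitochondrial ones and 49.9% of all genes tested. For contralateral against naive, 26 of 77 were positive (median -0.02) beside 12 of 13 and 50.1% of all genes tested. Without contralateral 4, only 3 of the 13 mitochondrial genes were positive there. Both comparisons share the naive libraries, and genes of a list can move together, so the signs are no independent results. For CCI mice against naive mice, 42 of 77 were positive (median 0.00), as were 50.3% of all genes tested. Ndufa12 stood at -0.35 (SE 0.13), the ATP synthase gene Atp5c1 at 0.16 (SE 0.05) and Cox7c at 0.26 (SE 0.12). None of these passed (edgeR adjusted p = 1.00).

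The summed level of the mitochondrial genes divided by that of the 77 nuclear genes was 9.13, 9.28, 9.58 and 9.17 in ipsilateral libraries 1 to 4. It was 9.30, 8.96, 11.6 and 12.7 in contralateral and 9.68, 10.9, 9.28 and 9.87 in naive libraries 1 to 4. Contralateral 3, contralateral 4 and naive 2 exceeded the other 9 libraries, and the groups overlapped. By complex, the ratio in contralateral 3 and 4 was 14.2 and 15.4 for complex I, 9.74 and 10.7 for complex III, 27.0 and 28.7 for complex IV and 3.94 and 4.55 for the ATP synthase. The ipsilateral libraries lay at 11.1 to 11.9, 7.29 to 7.86, 22.3 to 23.0 and 3.13 to 3.35 in the same order. The nuclear sums themselves were 7467 and 7276 CPM in contralateral 3 and 4, and 7238 CPM in contralateral 1, where the mitochondrial share was the lowest. In contralateral 2 the nuclear sum was 8046 CPM, the highest of the 12 libraries. It was 7800 to 8023 CPM in ipsilateral and 7503 to 8044 CPM in naive libraries.

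The same libraries also differed in the summed levels of cell type markers. The 5 endothelial markers summed to 247 and 258 CPM in contralateral 3 and 4 and to 231 in naive 2, against 184 to 217 in the other 9 libraries. The 7 microglia markers summed to 346, 394 and 344 CPM in these 3 libraries, against 266 to 312. The 6 astrocyte markers without Slc1a2 summed to 1705, 1850 and 1605 CPM, against 1283 to 1563. The 5 blood markers summed to 57.6, 61.7 and 61.3 CPM there and to 62.0 in naive 4, against 33.3 to 42.8 in the other 8. The 5 mural cell markers were also highest in contralateral 3 and 4 (268 and 279 CPM), and naive 4 followed at 246 CPM. The 7 oligodendrocyte markers went the other way: they summed to 2302 and 2251 CPM in contralateral 3 and 4, to 4540 and 5024 in contralateral 1 and 2, and to 2244 to 4315 in the other 8 libraries. The 7 meningeal and fibroblast markers summed to 51.8 and 72.5 CPM in contralateral 3 and 4 and to 26.4 to 65.2 elsewhere. In contralateral against ipsilateral, all markers of these 7 lists had a positive fold change (5 of 5 endothelial, mural cell and blood, 7 of 7 microglia, astrocyte, oligodendrocyte and meningeal), and none passed. Of the remaining lists, 1 of 6 excitatory neuron, 1 of 7 inhibitory interneuron and 5 of 6 striatal markers were positive, and none passed. The excitatory neuron markers summed to 6428 and 5997 CPM in contralateral 3 and 4 and to 6024 in naive 2. They were lowest in contralateral 1 (5073 CPM) and lay at 5429 to 6261 CPM elsewhere. The inhibitory interneuron markers summed to 946, 920 and 989 CPM in contralateral 3, contralateral 4 and naive 2, and to 916 to 1096 CPM elsewhere. The striatal markers summed to 303 CPM in contralateral 1, where the mitochondrial share was the lowest, and to 128 to 175 CPM elsewhere. The part of all these markers in the mitochondrial values was not tested.

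No gene of 3 lists of nuclear genes that maintain and express the mitochondrial genome passed the edgeR test in any of the 4 comparisons. Of 23 genes for mitochondrial DNA upkeep and transcription, 11 were positive and 12 negative in contralateral against ipsilateral (median -0.01), with Mterf4 at -0.14 and the nuclear receptor gene Esrra at -0.17. In CCI against naive mice 13 were positive and 10 negative, with the mitochondrial RNA polymerase gene Polrmt at 0.14 (SE 0.06) and the polymerase accessory subunit gene Polg2 at 0.34 (SE 0.16). Of 24 genes for mitochondrial RNA processing and stability, 10 were positive between hemispheres and 13 between mice. Among them were Mtpap, the mitochondrial poly(A) polymerase, at -0.19 (SE 0.09) and the messenger-stabilising Lrpprc at -0.11 (SE 0.06) between hemispheres, and Fastk at 0.15 (SE 0.05) and Fastkd1 at -0.17 (SE 0.09) between mice. The list of mitochondrial ribosomal protein genes was incomplete. A name filter meant for pseudogenes also removed Mrps genes (small ribosomal subunit) whose names end in a number, so mainly Mrpl genes (large subunit) remained. Of the 51 genes kept, 20 were positive between hemispheres and 18 between mice, with Mrpl17 at -0.24 (SE 0.08) in the latter. In contralateral against naive 10 were positive and 41 negative (median -0.03), where 50.1% of all genes were positive, and in ipsilateral against naive 25 were positive and 26 negative. The edgeR adjusted p of the genes named here was 0.610 or more.

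Since the mitochondrial messengers differ from most in their tails and location, RNA classes that depend on library preparation were also listed. Of 8 nuclear-retained long RNAs, 6 were positive in contralateral against ipsilateral (median 0.03), with Mirg at 0.35 (SE 0.11; edgeR adjusted p = 0.592). Their summed level was 10279 and 10865 CPM in contralateral 3 and 4 and 10720 in naive 2, against 8845 to 10154 in the other 9 libraries. The last list held 76 genes, mostly histone genes, chosen as abundant RNA without a poly(A) tail. Whether RNA of these genes lacked a tail here was not tested. Of the 76 genes, 12 were expressed enough to be tested between hemispheres, and 4 of them were positive (Hist1h4i -0.80, SE 0.27; edgeR adjusted p = 0.592). Their summed level was 68.1 to 83.5 CPM over the 12 libraries, with contralateral 3 and 4 at 76.9 and 73.5. The naive libraries (79.2 to 82.7 CPM) did not overlap with the contralateral libraries (72.7 to 76.9), but they overlapped with the ipsilateral libraries (68.1 to 83.5). Taken gene by gene, contralateral and naive libraries did not overlap for 2.2% of all genes tested. Of 12 genes tested, 1 was positive in contralateral against naive (median -0.22) and 3 in ipsilateral against naive (median -0.14). Of 14 tested, 1 was positive in CCI against naive mice (median -0.13). Over all genes tested, 50.1, 49.9 and 50.3% were positive in these comparisons, in the same order. Hist2h2aa2 stood at -0.51 (SE 0.15; edgeR adjusted p = 0.969) in the last of these, and no gene of the list passed in any comparison. Whether RNA quality or library preparation moved with the mitochondrial share was not tested beyond these values.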

How the data were processed

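RNA was sequenced from 12 mPFC libraries (3 groups of 4). Per the labels' protocols, libraries were made from total RNA with an Illumina mRNA kit. Per the submitters' processing notes HISAT2 2.0.4 and GRCm38/mm10 are named; what each was used for is not stated, and the counting program and its strand setting were not given in the sources used here. The authors deposited raw counts per gene and library, and FPKM, which the authors computed from them; for the 13 members FPKM followed count, length and total within a relative departure of 1.34e-06. FPKM was used only to compare levels between genes.

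The test was edgeR's (version 4.0.16, under R 4.3.3; TMM, filterByExpr by group, robust quasi-likelihood, two-sided), in a fit of all 12 libraries (15808 genes) and in a fit of 8 mice (16179 genes). The threshold was an adjusted p under 0.05 (Benjamini-Hochberg, over all genes tested), and each standard error was derived from the F statistic. DESeq2 1.42.0 and limma 3.58.1 were alternatives. In simulated counts with 200 changed genes, 98 to 100% of 2-fold changes were recovered, with 5 to 12 false calls per comparison. Only 2-fold and 4-fold changes were simulated. The largest fitted change of a mitochondrial gene in the main fits was -0.21 in log2 (mt-Nd6, ipsilateral against naive). Recovery of changes this small was not tested, so the simulation cannot say whether they would have passed. Nuclear copies were found with BLAST 2.17.0 against GENCODE M21 transcripts (at least 90% identity over 100 bases) and compared base by base.

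The members and gene lists were chosen with earlier results of these data known. The naming rule gives fold changes of members that passed, else of the 3 of smallest p per comparison, and levels of mt-Co1, mt-Cytb, mt-Nd6 and mt-Atp8; from each pathway list, the 2 genes of smallest p between hemispheres and between mice. Fold changes of mt-Nd6 and mt-Atp6 outside this rule, right-minus-left values, copies and Slc1a2 were chosen after their values were seen. The labels do not say outright that libraries of a group came from separate animals, so p-values measure only the spread between these samples, which may be technical. Counting errors cover counting only.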

Additional observations from a re-analysis of the deposited data

Results flagged for a closer look

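In each group of 4 libraries, the highest or lowest value was compared with the group's range (Dixon's test), for 132 sets of values of the genes, their complexes and their nuclear copies, of which 10 stood apart; chance marks about 1 in 20. mt-Atp6 in naive 3 stood apart from the other naive libraries in level (5225 CPM) and in its share of the mitochondrial counts (7.50%), and with it the share of both ATP synthase genes (10.5%). Ipsilateral 3 was above the other 3 ipsilateral libraries in the share of all counts held by the 13 genes (7.59%) and by the genes and their nuclear copies together (8.06%). mt-Cytb had a lower share of the mitochondrial counts in ipsilateral 3 (9.89%) and in contralateral 2 (9.84%) than in the other libraries of their groups. mt-Nd4 had a higher share in contralateral 4 (8.17%) than in the other contralateral libraries. Among the nuclear copies, Gm28439 had a lower percent of the count of mt-Nd4 in naive 1 (8.73%), and Gm28661 a lower percent of that of mt-Co2 in contralateral 2 (13.1%), than in the other libraries of their groups. No cause was tested for any of the 10.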

How the results depend on the processing

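None of the 13 genes passed in any setting of the 4 comparisons (17 to 19 settings each, the main one included). The positive sign of all 13 in contralateral against ipsilateral held in its 18 alternatives; elsewhere signs turned in 39 of 208 values (CCI against naive mice), 13 of 221 (contralateral against naive) and 7 of 221 (ipsilateral against naive). In CCI against naive mice, the log2 fold change of mt-Atp6 was -0.037 without naive 3 and reached 0.11 without naive 2.

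Counts of all genes past the threshold, 0 in each comparison, moved as follows, and no mitochondrial gene was among them. With DESeq2 they were 3 (contralateral against naive), 7 (ipsilateral against naive) and 32 (CCI against naive mice). In fits of only the 2 groups compared they were 1 for contralateral against naive and 7 for ipsilateral against naive. For CCI against naive mice they were 4 without TMM and 5 without the filter on low counts. Leaving out 1 library gave 0 to 2, 0 to 1 and, between hemispheres, 0 to 159 (159 without contralateral 2 and 0 without each of the others), and for CCI against naive mice 0 to 6. With the replicate block they were 1, 1, 0 between hemispheres and 1 for CCI against naive mice. This block also joined naive and CCI samples of the same number, which no label links. Same-numbered left and right libraries had correlations of their deviations between -0.14 and 0.06, so the data give no hint of pairing. The causes were not tested.

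Counting the nuclear copies with the genes, an alternative chosen after seeing the data, raised the share in every group, to 7.76% in the ipsilateral group. The copies held on average 0.447% of all counts in ipsilateral, 0.502% in contralateral and 0.481% in naive libraries. A library total without the ribosomal RNA genes was not run, since those genes were not analysed here. Depth weighed most on mt-Nd6, whose counting error of 4.43 to 5.70% was still below its observed variation of 15.9%.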
